A study of Homo sapiens with 120 samples.

Results

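Small RNA was sequenced from human HEK293T cells, an embryonic kidney line, and 6 entries of the deposited miRNA tables are described here: miR-10395-3p, miR-10395-5p, miR-7974, miR-12136, miR-1275 and miR-3168. They are 6 of 2652 mature miRNA names in 2883 rows. The 6 were chosen from their measured values, for a low value in Ago pulldown against total RNA or a high value without Dicer, so those 2 contrasts are given below as descriptions without a test. Comparisons of transfections within the Dicer knock-out rest on the same chosen values and are also given without a test. The rule of choice did not use the other comparisons, between lines and between transfections. Earlier results of these data were known when the members were chosen.

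All lines derive from a HEK293T line labelled pOSI17 PKR knock-out, which lacks PKR, a kinase activated by double-stranded RNA (dsRNA), and this line is called parental. Experiment 1 compared it with PACT knock-out, TRBP knock-out, and PACT, TRBP knock-out cells. Experiment 2 compared it with lines labelled Ago2 knock-out, Ago1/2 knock-out and Dicer knock-out. Each line was transfected with Lipofectamine 3000, as a mock, with the long dsRNA dsGFPc or with the long dsRNA dsGFPd. Each was sequenced as total RNA and as the RNA that an Ago-binding peptide pulled down (Ago pulldown), with 2 libraries per group, 48 per experiment and 96 in all. The labels name no clone number, and the mRNAs of the deleted genes were not measured, so the lines are known here by their labels only. Nothing in them shows that paired libraries were grown as separate cultures, and without that the p-values below measure only the spread between these libraries.

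In the usual pathway Drosha cuts a hairpin out of a primary transcript, Dicer cuts the hairpin into a duplex, and 1 strand is kept by an Ago protein, which protects it and uses its seed to pair with mRNAs. TRBP and PACT are dsRNA-binding partners of Dicer. Entries of a miRNA catalogue are named from sequenced small RNAs, and an entry can share its sequence with a piece of another RNA, such as a tRNA or a small nucleolar RNA. A catalogue name thus does not by itself show that Dicer made the RNA or that Ago holds it.

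The mature sequences are shown because length and position in the hairpin set these entries beside other miRNAs. RefSeq (GRCh38.p14) held 4 of the 6 members. The lines below run 5′ to 3′, with the seed (bases 2 to 8) in capitals.
miR-7974: aGGCUGUGaugcucuccugagccc
miR-12136: gAAAAAGUcauggaggcc
miR-1275: gUGGGGGAgaggcuguc
miR-3168: gAGUUCUAcagucagac
The miR-3168 sequence resembles part of an adapter used in small RNA libraries, and how many of its reads came from an adapter was not tested, so its values below may not all be of a cellular RNA. No seed was shared between these 4. Only miR-1275 shared its seed with another entry of the table, miR-4665-5p. miR-12136 has 18 bases, miR-1275 and miR-3168 have 17, and miR-7974 has 24, whereas the median of the 2370 mature names in the table was 22, with 5.49% at 18 or fewer and 5.74% at 24 or more. All 4 therefore lie in the short or the long tail of the length distribution.

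The hairpins of 3 members were in the table and are printed next with the mature part in capitals, to show where it sits.
MIR7974: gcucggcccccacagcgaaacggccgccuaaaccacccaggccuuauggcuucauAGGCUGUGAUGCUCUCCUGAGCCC
MIR12136: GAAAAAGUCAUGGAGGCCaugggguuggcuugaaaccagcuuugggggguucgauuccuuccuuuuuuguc
MIR1275: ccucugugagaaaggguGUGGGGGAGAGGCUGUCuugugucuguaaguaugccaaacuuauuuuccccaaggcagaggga
The mature miR-7974 ends at the last base of its hairpin of 79 bases, and miR-12136 begins at the first base of its hairpin of 71 bases. A mature sequence touched a hairpin end in 12.9% of the 2263 that could be placed, and the median distance to the nearer end was 9 bases. The predicted fold was weak for all 3: free energy per base was −0.30 kcal/mol for miR-7974, −0.27 for miR-12136 and −0.33 for miR-1275, against a median of −0.45 over 1560 hairpins, of which 8.14%, 4.29% and 13.8% were weaker. Annotated hairpin lengths are a catalogue convention, so these figures describe the entries and not the cells' precursors.

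MIR7974 lies at chr19:11495544-11495622 on the minus strand, within the span of the protein-coding gene ZNF653. MIR1275 lies at chr6:33999972-34000051 on the minus strand and overlaps no other annotated gene. The nearer edge of the span of GRM4, a glutamate receptor gene, is 18592 bases away. The mature miR-3168 lies at chr13:41101076-41101092 on the minus strand, between WBP4 and a pseudogene of a 7SL RNA, and overlaps neither. MIR12136 lies at chr1:632615-632685 on the minus strand, between MTCO1P12 and MTCO2P12, nuclear pseudogenes of the mitochondrial genes COX1 and COX2. It overlaps the end of MTCO1P12, lies within the span of LOC102724250 and is 72 bases from MTCO2P12. In the mitochondrial genome the gene between COX1 and COX2 is the serine tRNA gene TRNS1. The MIR12136 hairpin also holds the letters GGUUCGA, the core of the T arm consensus of tRNAs, a motif chosen after the hairpin was seen. Searched on both strands, 4 of 1560 hairpins (0.256%) hold it. The mitochondrial sequence was not used here, so whether reads of miR-12136 came from TRNS1 was not tested.

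Reads assigned to miRNAs numbered 406531 to 1104630 per total RNA library of experiment 1 and 910155 to 4340650 in experiment 2, Dicer knock-out excepted. Pulldown libraries of those lines held 2457547 to 13457933 and 1856249 to 7167395. The Dicer knock-out libraries were much smaller, with 39916 to 180343 reads in total RNA and 47006 to 593510 in pulldown. The 7 miRNAs listed as abundant in HEK293T were all read in every line, at 172265 to 428608 reads per 1000000 miRNA reads (RPM) together outside the Dicer knock-out, where each list for another cell type summed to at most 407. In Dicer knock-out total RNA the liver list, miR-122-5p, reached 1758 and the smooth muscle and fibroblast list 1127.

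In pulldown the members were far below their total RNA level, which is what they were chosen for. In experiment 1 the 6 together made up 3.61 to 6.24% of miRNA reads in total RNA and 0.00135 to 0.0240% in pulldown, and in the lines of experiment 2 that have Dicer 0.165 to 0.850% and 0.000786 to 0.00472%. Values in this and the next paragraphs are in RPM, a share within a library. Parental cells of experiment 1 had 37438 to 56803 of miR-10395-3p in total RNA (median 41594, 6 libraries) and 2.20 to 131 in pulldown (median 6.95, 6 libraries). miR-7974 had 446 to 769 in total RNA there, and 0 to 4.91 in pulldown, with reads in 2 of 6 libraries. miR-12136 had 184 to 300.1 in total RNA and was read in 1 of 6 pulldown libraries, at 0.644. The lowest total RNA library was above the highest pulldown library for all 6 members in parental cells of experiment 1, and all 6 line-matched pairs were lower in pulldown.

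**Figure D1:**
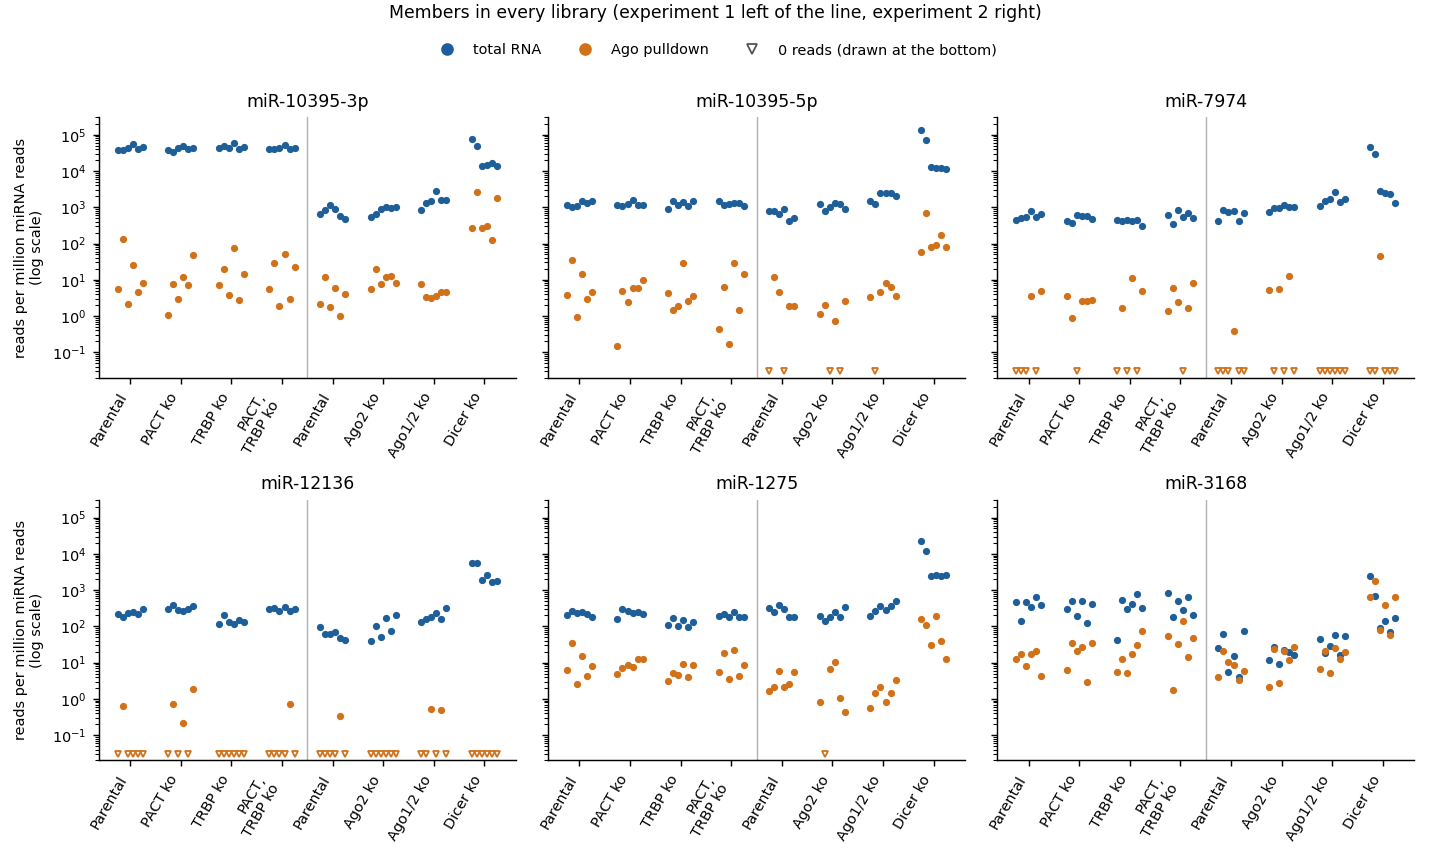
Level in RPM (log scale) of each member in all 96 libraries, by line, with total RNA in blue and Ago pulldown in orange; open triangles at the bottom mark 0 reads, and within a line the order is mock, dsGFPc and dsGFPd, replicates 1 and 2. Total RNA stands far above pulldown in 5 panels, while miR-3168 overlaps between the fractions in experiment 2. All 6 have a higher median in Dicer knock-out total RNA than in parental total RNA of experiment 2. For miR-10395-3p that median (15826) is below the total RNA median of each line of experiment 1.

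Pooled over the 6 libraries of the parental line, miR-10395-3p was 1220 times lower in pulldown in experiment 1 and 189 times in experiment 2. miR-10395-5p was 105 and 196 times lower. miR-7974 was 467 times lower in experiment 1, and in experiment 2 its 9854 reads in total RNA stood against 2 in pulldown, a ratio of 10331 with a counting interval of 2860 to 85306. miR-12136 was 1665 times lower in experiment 1 and 1035 times in experiment 2, the latter from 2 pulldown reads (interval 286 to 8544). miR-1275 was lower by 17.5 and 80.0 times. Mock replicate 2 held 811 of the 1019 pulldown reads of miR-10395-3p in experiment 1, 224 of 342 of miR-10395-5p and 215 of 379 of miR-1275. Without it they were 4711, 239.6 and 31.9 times lower, and in experiment 2 miR-10395-5p was 354 times lower without mock replicate 2. miR-7974 was 729 times lower in experiment 1 without dsGFPc replicate 2 and 888 times without dsGFPd replicate 2. The protocol checked the pulldown by miR-21-5p and miR-16-5p. The first of these was 1.47 times lower in pulldown in experiment 1 and 1.40 times in experiment 2, and miR-16-5p was 1.67 and 1.68 times lower.

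miR-3168 went against the label in experiment 2. It was 29.4 times lower in parental pulldown in experiment 1 and 2.94 times in experiment 2, where total RNA held 3.92 to 73.1 and pulldown 3.40 to 20.9. The ranges overlapped in all 4 lines of experiment 2, and in Dicer knock-out cells pulldown was higher in 3 of 6 pairs. The ratio of pooled reads was 1.17 to 2.94 over those lines. In experiment 1 its ranges overlapped in TRBP knock-out cells alone, where 1 total RNA library was at 41.6 and the highest pulldown library at 76.5.

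None of the members was without reads in pulldown throughout. miR-12136 had 0 reads in all 6 pulldown libraries of TRBP knock-out, Ago2 knock-out and Dicer knock-out cells, which, against a floor of 3 reads over the 6 libraries, makes it at least 1727, 731 and 1357 times lower there. miR-7974 had 0 reads in the 6 pulldown libraries labelled Ago1/2 knock-out, at least 12887 times lower. The floor and these intervals cover counting error only. The word abundant holds for miR-10395-3p in experiment 1, which ranked 4 in parental total RNA; the others ranked 71 to 139 there, and all 6 ranked 85 to 293 in experiment 2.

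In total RNA the large excess of the 3p arm of the miR-10395 hairpin in experiment 1 was near equality in experiment 2. In experiment 1 total RNA held 27.2 to 48.3 reads of miR-10395-3p per read of miR-10395-5p (median 34.9, 24 libraries), and in the lines of experiment 2 with Dicer 0.436 to 1.78 (median 0.864, 18 libraries). In parental cells, the line common to both, the median ratio was 34.5 and 1.06. The ranges were far apart. The ratio was taken within each library, so the scaling factor of a library does not enter it. In parental cells the shift lay mostly in the 3p arm: its median was 41594 RPM in experiment 1 and 764 in experiment 2, 54.5 times apart, while that of the 5p arm was 1227 and 718, 1.71 times apart. Of 77 hairpins with both arms read at least 60 times in the parental total RNA of each experiment, miR-10395 had the largest difference in arm ratio, 4.86 on the log2 scale, followed by miR-766 with 1.96, and the median absolute difference was 0.46. The experiments are separate sets of libraries in separate tables, so experiment and library preparation cannot be told apart, and no test was made.

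**Figure D2:**
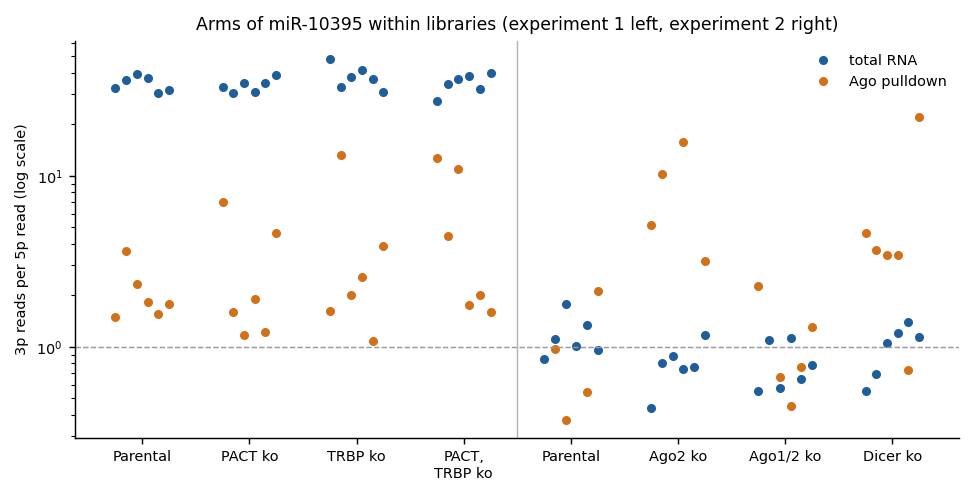
Reads of miR-10395-3p per read of miR-10395-5p (log scale) in each library with both arms, by line; blue is total RNA, orange is Ago pulldown, and the dashed line marks equal reads. Total RNA lies between 27.2 and 48.3 in experiment 1 and between 0.436 and 1.78 in experiment 2 outside the Dicer knock-out, while pulldown ratios in experiment 1 lie between 1.08 and 13.25.

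In the pulldown of experiment 1 the excess of the 3p arm was smaller than in total RNA of the same lines. The median ratio was 1.80 in parental cells, 1.74 in PACT knock-out, 2.27 in TRBP knock-out and 3.21 in PACT, TRBP knock-out cells, and no pulldown library reached the lowest total RNA ratio. Those pulldown ratios rest on 1 to 224 reads of the 5p arm per library. In experiment 2 pulldown, libraries with 0 reads of the 5p arm gave no ratio. The median was 0.755 in parental cells (4 libraries) and 0.76 with the label Ago1/2 knock-out (5 libraries). In total RNA it was 1.06 and 0.714. Over all 6 libraries log2 of 5p over 3p was also taken, with 1 added to each normalised count. Its median was −0.36 in parental pulldown and −0.08 in parental total RNA. With the label Ago1/2 knock-out these were 0.002 and 0.49. On that scale the 3p share was higher in pulldown for both, so in parental cells the direction depended on the measure. The median ratio was higher in pulldown with the label Ago2 knock-out (7.65 against 0.783) and in Dicer knock-out cells (3.57 against 1.09). With the label Ago2 knock-out, 4 pulldown libraries had both arms, with at most 8 reads of the 5p arm each. Within total RNA of experiment 1 the 2 arms varied together over libraries (Pearson r = 0.71, 24 libraries that share lines and scaling, a description only).

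Other entries also differed between the parental libraries of the experiments, but not all did. miR-3168 had a median of 428 RPM in experiment 1 and 20.4 in experiment 2 and miR-12136 had 227 and 60.1. miR-7974 had 550 and 735, 0.747 times, and miR-1275 had 220.04 and 277, 0.796 times. The abundant miR-10b-5p had 155777 and 169905. Outside the members miR-1291, which overlaps a small nucleolar RNA, had 24506 to 40615 in experiment 1 and 0 to 6.55 in experiment 2.

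Without Dicer the members took a large share of what remained, again by choice of the members. In Dicer knock-out total RNA the 2 mock libraries held 28.6 and 16.8% of their miRNA reads in the 6 entries, and miR-10395-5p was the most read entry of all in mock replicate 1 (13.6%) and ranked 3 in replicate 2 (7.07%). miR-10395-3p ranked 4 and 5 in those libraries, and miR-7974 ranked 6 and 7. The mock and dsRNA libraries of this line differed several-fold, so each is set against the parental libraries of the same kind. By mean RPM the mock libraries were 81.0 times the parental level for miR-10395-3p, 131 for miR-10395-5p, 58.5 for miR-7974, 70.1 for miR-12136, 61.8 for miR-1275 and 37.0 for miR-3168. The dsRNA libraries were 18.8, 19.8, 3.34, 35.7, 9.63 and 4.81 times the parental dsRNA level, in the same order. The median over all 6 libraries was 20.7 times that of the parental line for miR-10395-3p, 17.5 times for miR-10395-5p, 3.55 times for miR-7974, 36.8 times for miR-12136, 9.39 times for miR-1275 and 7.58 times for miR-3168. On deposited normalised counts these medians gave 13.3 to 122 times, and in these small libraries 1 read is worth 10.6 to 32.5 normalised counts. Among the controls the median of miR-21-5p was 19.7 times the parental level by RPM and 85.4 times by normalised counts, and that of miR-16-5p 0.904 and 3.31 times.

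In experiment 1 total RNA, 3 members were lower in TRBP knock-out cells than in the parental line. From here values are deposited normalised counts, as mean ± SD over the 6 libraries of a line, and log2 changes are from limma on log2(count + 1), with standard errors (SE). In bulk libraries a lower level in all cells and fewer cells with the RNA cannot be told apart. Without TRBP, 3 of 6 members fell and 0 rose, where 20.4% of the 422 miRNAs tested were called, 40 of them up and 46 down. The members' median change was −0.39, against 0.02 over all 422.

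miR-1275 had 147 to 214 normalised counts in the parental line (median 177) and 74.0 to 133 in TRBP knock-out cells (median 102). The ranges did not overlap, and it fell by 0.82 (SE 0.16, adjusted p = 0.000221). miR-12136 had 150.5 to 246 in parental cells (median 182) and 98.8 to 160.1 without TRBP (median 107), so that only the highest TRBP knock-out library reached the parental range. It fell by 0.72 (SE 0.14, adjusted p = 0.000221). miR-7974 had 341 to 655 and 259 to 363, and fell by 0.47 (SE 0.13, adjusted p = 0.0112). The 2 groups overlapped in part, and under quantile normalization the adjusted p was 0.109. miR-10395-3p (0.11, SE 0.09, adjusted p = 0.423), miR-10395-5p (−0.01, SE 0.11, adjusted p = 0.964) and miR-3168 (−0.31, SE 0.58, adjusted p = 0.773) did not pass.

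**Figure D3:**
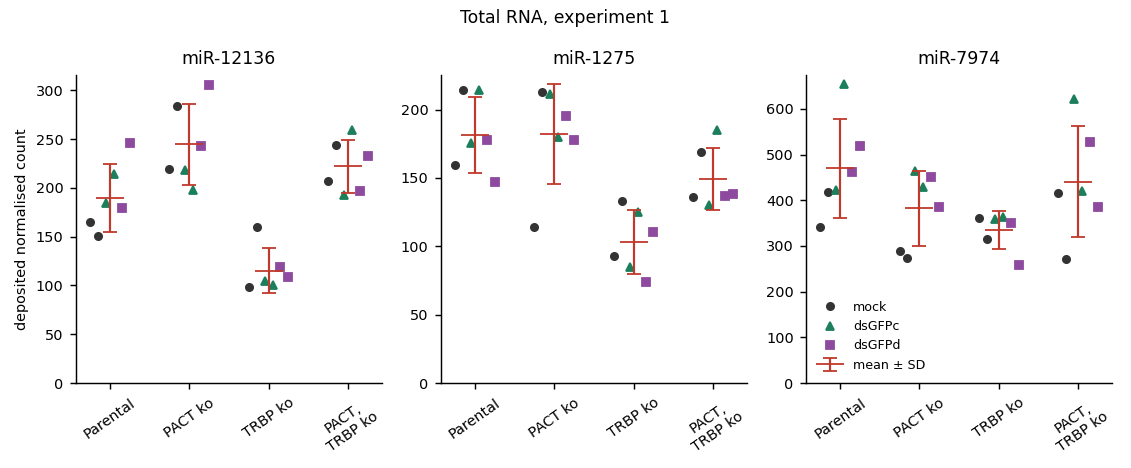
Deposited normalised counts of miR-12136, miR-1275 and miR-7974 in total RNA of experiment 1, by line; symbols mark the transfection of each library and the red bars the mean ± SD of 6 libraries. For miR-1275 every TRBP knock-out library lies below every parental library (133 at most against 147 at least), and the PACT, TRBP knock-out libraries overlap both groups.

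In cells lacking PACT as well, these 3 were higher than in TRBP knock-out cells. The same 6 TRBP knock-out libraries gave their fall against the parental line, so this rise is not a separate finding. From TRBP knock-out to PACT, TRBP knock-out cells 4 members were called, where 35.8% of the 422 tested were. miR-12136 rose by 0.95 (SE 0.14, adjusted p = 1.41e-06), from 115 ± 23.1 to 222 ± 27.2, with no overlap. miR-1275 rose by 0.54 (SE 0.16, adjusted p = 0.00644), from 103 ± 23.4 to 149 ± 22.4. miR-7974 rose by 0.36 (adjusted p = 0.0361) and miR-10395-3p fell by 0.22 (adjusted p = 0.0479). These last 2 calls were fragile: they were lost in 2 and 4 of 8 other settings and in 7 and 15 of 24 fits without 1 library.

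Against the parental line, PACT, TRBP knock-out cells gave no call for a member. The count was 0 of 6 with limma, where 14% of all tested were called, 0 at an unadjusted p under 0.05, and 0 with edgeR and with DESeq2. Without PACT alone the count was also 0 of 6 by all 3 tools, where 1.42% of all tested were called, with 2 members under an unadjusted p of 0.05. These were miR-12136 (0.36, SE 0.14, adjusted p = 0.324) and miR-7974 (−0.30, SE 0.13, adjusted p = 0.487). By mean level miR-12136 stood highest in PACT knock-out (244 ± 41.9), then PACT, TRBP knock-out (222 ± 27.2), parental (190 ± 34.7) and TRBP knock-out cells (115 ± 23.1). The 3 higher lines overlapped in their ranges, and neither knock-out among them differed from the parental line by the test.

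In the pulldown of experiment 1 no line differed detectably from the parental line in any member. miR-12136 had too few reads to be tested. Of the other 5, limma called 0 without PACT, 0 without TRBP and 0 without both, where 0%, 4.01% and 2.34% of the 897 tested were called. All 3 counts were also 0 at an unadjusted p under 0.05, and with edgeR and DESeq2, and without PACT 31 of all 897 were under that unadjusted p. The SE of a line difference was 0.50 for miR-1275 to 0.92 for miR-10395-3p, which had 1.71 to 124 normalised counts in parental pulldown. Replicates of a group were far apart here: the higher was a median of 6.95 times the lower for miR-10395-3p, and replicate 2 was the higher in 12 of 12 groups.

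Of the experiment 2 lines, the one labelled Ago1/2 knock-out had more of 4 members in total RNA. All 4 calls were increases, where 45.6% of the 632 miRNAs tested were called, 163 up and 125 down. The members' median change was 1.17, against 0.04 over all 632. In the same libraries the 7 abundant HEK293T miRNAs summed to 172265 to 219215 RPM, against 344506 to 428608 in parental cells, without overlap, and the part of this shift in the members' values was not tested. miR-10395-5p had 268 to 453 normalised counts in parental cells (median 410.4) and 792 to 1375 in the libraries labelled Ago1/2 knock-out (median 1208). The groups did not overlap, and it rose by 1.57 (SE 0.18, adjusted p = 9.06e-08). miR-7974 had 228 to 477 and 589 to 1510.4, also apart, and rose by 1.34 (SE 0.20, adjusted p = 3.11e-06).

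miR-12136 rose by 1.60 (SE 0.35, adjusted p = 0.000610), from 23.9 to 52.9 in parental libraries to 69.6 to 187, again without overlap. miR-10395-3p had 277 to 737 and 434 to 1546, ranges that overlapped, and rose by 1.00 (SE 0.22, adjusted p = 0.000614). Under quantile normalization its adjusted p was 0.0599. miR-1275 (0.27, SE 0.24, adjusted p = 0.380) and miR-3168 (0.72, SE 0.57, adjusted p = 0.323) did not pass. Other scalings moved the median of all 632 miRNAs to −0.16 (quantile), −0.18 (DESeq2) and −0.24 (edgeR), and the other 3 calls held under each.

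**Figure D4:**
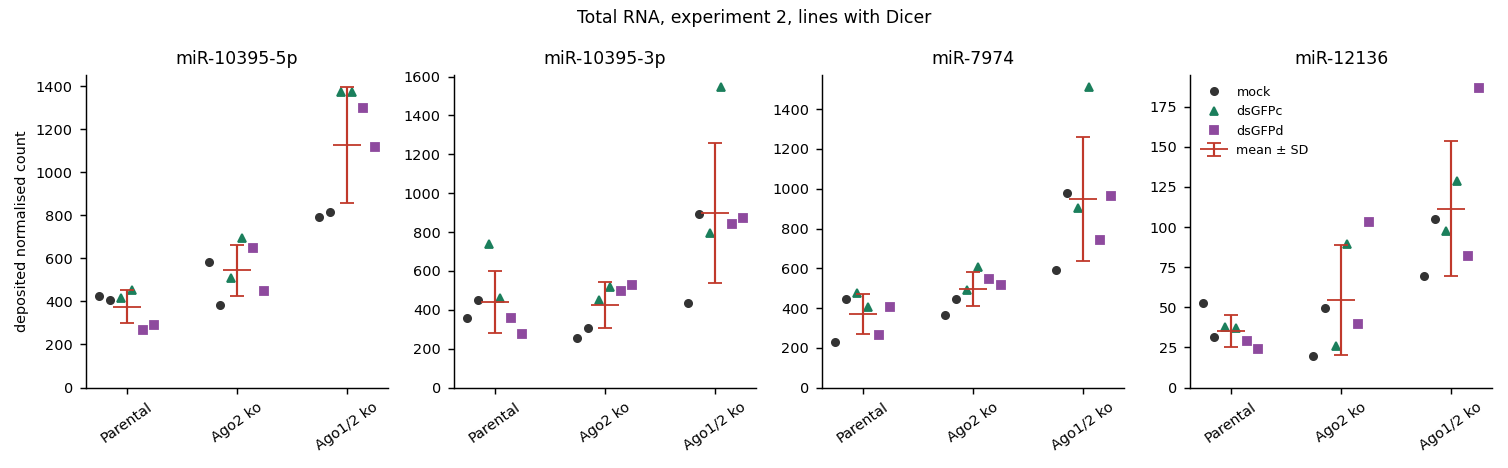
Deposited normalised counts of 4 members in total RNA of experiment 2, by line as labelled; symbols mark transfection and red bars the mean ± SD of 6 libraries. For miR-10395-5p, miR-7974 and miR-12136 every library labelled Ago1/2 knock-out lies above every parental library.

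In total RNA of the libraries labelled Ago2 knock-out 1 of 6 members was called, where 19.3% of all tested were. miR-10395-5p had 381 to 694 normalised counts there and rose by 0.53 (SE 0.18, adjusted p = 0.0410), but edgeR and DESeq2 did not call it and 8 of 18 fits without 1 library lost it. miR-7974 changed by 0.45 (SE 0.20, adjusted p = 0.124) and miR-1275 by −0.51 (SE 0.24, adjusted p = 0.171). Neither passed.

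In pulldown only 4 members had enough reads for a test in experiment 2. With the label Ago2 knock-out 1 of 4 was called, where 35.9% of the 750 tested were. miR-10395-3p had 0.609 to 8.84 normalised counts in parental pulldown and 6.06 to 22.0 in these libraries, 19 to 61 reads each, and rose by 1.79 (SE 0.56, adjusted p = 0.0168). The call was lost when columns were scaled to the same sum, with edgeR and with the Dicer knock-out libraries kept. With the label Ago1/2 knock-out 0 of 4 were called, where 7.07% of all tested were. That count was 0 at an unadjusted p under 0.05 and with edgeR and DESeq2, and fitting the replicate number as a block left it at 0 while the calls among all 750 went from 53 to 86.

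With long dsRNA 2 members were higher than in mock libraries in total RNA of experiment 1, by small amounts. Here 22.3% of the 422 tested were called, 56 up and 38 down. miR-10395-3p had 24347 to 36759.6 normalised counts in the 8 mock libraries (median 29722) and 30841 to 51073 in the 16 with dsRNA (median 35071). The groups overlapped, the mean was higher with dsRNA in 4 of 4 lines, and it rose by 0.28 (SE 0.07, adjusted p = 0.00209). miR-7974 had 272 to 419 in mock libraries (median 328) and 259 to 655 with dsRNA (median 425). It was higher in 3 of 4 lines, the exception being TRBP knock-out, and rose by 0.38 (SE 0.10, adjusted p = 0.00603). miR-10395-5p changed by 0.22 (SE 0.08, adjusted p = 0.0671). Mock libraries were deeper, at 664201 to 1104630 reads against 406531 to 895350, and the part of depth in these differences was not tested.

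The lines did not differ detectably in this response. The test of a difference between lines called 0 of 6 members in experiment 1 and 0 of 6 in the lines of experiment 2 with Dicer. Of all miRNAs it called 0% in each, with 12 of 422 and 35 of 632 under an unadjusted p of 0.05. No member was under it, and edgeR and DESeq2 also called 0 members.

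In experiment 2 the lines with Dicer gave 0 of 6 calls for dsRNA in total RNA, where 4.27% of all tested were called. miR-10395-3p (0.52, SE 0.19, adjusted p = 0.118) and miR-7974 (0.35, SE 0.17, adjusted p = 0.287) were under an unadjusted p of 0.05, and edgeR and DESeq2 called 0. Pulldown gave 0 of 5 in experiment 1, where 17.6% were called, and 0 of 4 in experiment 2, where 0.4% were. With edgeR, DESeq2 and at an unadjusted p under 0.05 these were again 0, and with the replicate block the calls among all 750 in experiment 2 went from 3 to 20.

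Within the Dicer knock-out the members had lower values with long dsRNA than in mock libraries. The members were chosen for high values in this line, which were highest in its mock libraries, so this is a description, with no p-value and nothing read from the count. The fit marked 2 of 6 members, where 32.1% of the 193 tested were called, 45 up and 17 down. miR-7974 had 58447 and 21777 normalised counts in the mock libraries and 5564, 4105, 5224 and 4625 in the dsRNA libraries, a log2 difference of −2.88 (SE 0.45). miR-10395-5p had 176219 and 51514 in mock and 25343, 21013, 26569 and 40637.5 with dsRNA, a difference of −1.79 (SE 0.53). For both, the 2 mock libraries stood above all 4 others.

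The remaining members differed by −2.35 (SE 0.91) for miR-3168, −1.49 (SE 0.52) for miR-1275, −0.84 (SE 0.46) for miR-10395-3p and −0.32 (SE 0.42) for miR-12136. As a share of miRNA reads all 6 were lower in each dsRNA library than in each mock library, and their sum was 28.6 and 16.8% in mock against 3.08 to 3.54% with dsRNA. Over the same libraries miR-182-5p went from 3.21% in mock to 15.2% with dsGFPc and 14.9% with dsGFPd, miR-21-5p from 1.87% to 10.7% and 9.85%, and miR-181a-5p from 2.09% to 10.6% and 9.89%. Entries outside the members also lost share: miR-92a-3p went from 5.39% to 1.10% and 0.628%, and miR-10a-5p from 12.9% to 10.1% and 9.95%. The mock libraries held 39916 and 68253 reads and the dsRNA libraries 161124 to 180343. Depth, scaling and transfection cannot be told apart here: with columns scaled to the same sum the median of all 193 miRNAs was −1.23, against −0.02.

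**Figure D5:**
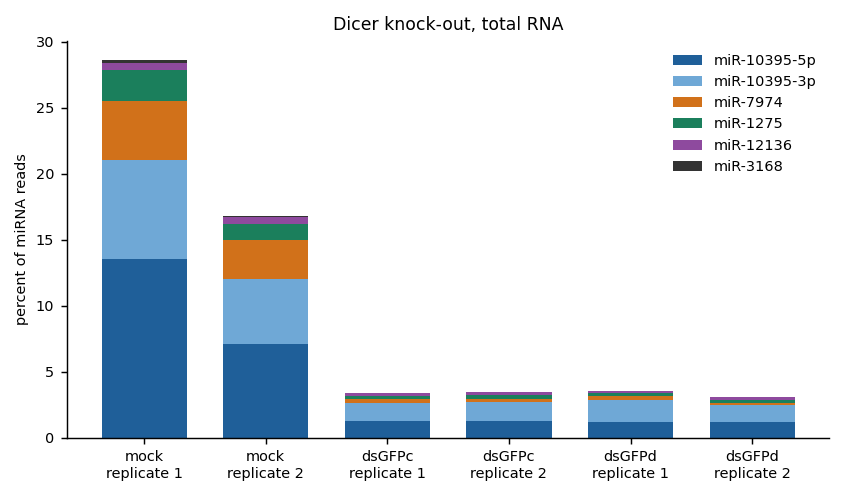
Share of miRNA reads (percent, bars from 0) taken by the 6 members in each total RNA library of Dicer knock-out cells, stacked by member. The 2 mock libraries reach 28.6 and 16.8% and the 4 libraries with dsRNA 3.08 to 3.54%.

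The entries whose pattern over the 8 line-by-fraction means was most like a member's were other members in 9 of 18 places, counting the nearest 3 of each. With Pearson's r averaged over the 2 experiments among 254 entries, miR-1275 (0.99) and miR-10395-5p (0.99) were nearest to miR-10395-3p, miR-4521 (0.99) to miR-7974, and miR-6724-5p (0.98) to miR-12136. The nearest to miR-3168 was instead miR-21-5p (0.99), followed by miR-15a-5p (0.98). These values rest on the difference between fractions and the Dicer knock-out means, which chose the members, and are given as a description.

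The list of 14 entries that overlap other small RNAs moved unevenly. Of the 11 in the tables, 4 had at least 60 parental total RNA reads in experiment 1, and all 4 were over 10 times lower in pulldown. miR-1291 was 68288 times lower (12 pulldown reads), miR-3651 2927 times (5 reads) and miR-1248 1442 times (3 reads). Among the members the highest such ratio was 1665, for miR-12136, so a very low pulldown share was not particular to them. Below the cut of 60 reads, 2 entries had a higher share in pulldown. They were miR-1260b, with 59 reads (17.4 RPM) in total RNA and 1163 (39.6 RPM) in pulldown, and miR-664a-3p, with 17 (5.01 RPM) and 395 (13.5 RPM). In experiment 2, 2 of 5 were over 10 times lower in pulldown, while miR-664a-3p was higher there, at 13.2 against 5.55 RPM. miR-4521 was 180 and 287 times lower in pulldown in the 2 experiments. In the tests TRBP knock-out gave 2 of 5 lower, where 20.4% of all tested were called, miR-1291 (−0.42, adjusted p = 0.0144) and miR-3651 (−1.09, adjusted p = 0.0304), with a list median of −0.42. The label Ago1/2 knock-out gave 2 of 4 higher in total RNA, miR-1260b (1.22) and miR-4521 (0.73), with a list median of 1.16, where 45.6% of all tested were called. dsRNA in experiment 1 gave 3 of 5 higher in total RNA, miR-1248 (3.03), miR-3651 (2.07) and miR-4521 (0.42), with a list median of 0.42 against −0.03 over all 422, of which 22.3% were called. In the lines of experiment 2 with Dicer it gave 0 of 4 in total RNA, where 4.27% of all tested were called, with a list median of 1.00. Pulldown gave 1 of 2 in experiment 1, a fall of miR-1260b (−1.33), where 17.6% were called. It gave 0 of 3 in experiment 2, where 0.4% were.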

How the data were processed

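The authors deposited 1 table per experiment with a row per mature miRNA and a signal in normalised counts per library. Per the submitters' processing notes STAR and GRCh38 were used; versions, counter, annotation and normalization software are not given in the sources used here. Values were whole multiples of 1 step per column for 100% of entries (tolerance 0.01), which gave whole reads. Of repeated rows of a name 1 was kept, setting aside 231. The table for experiment 3 (24 libraries) is identical to that of experiment 2 and was not analysed here.

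Tests used limma 3.58.1 in R 4.3.3 on log2(normalised count + 1), for miRNAs reaching 10 reads in 6 or more libraries (3 for the Dicer knock-out fit), with additive terms for line and transfection. P-values were adjusted over all miRNAs tested (Benjamini-Hochberg), threshold 0.05, in 18 comparisons. That of dsRNA within the Dicer knock-out was planned as a test and is given as a description, since members were chosen for high values there. Comparisons with the parental line share its libraries, and dsRNA comparisons pool dsGFPc and dsGFPd. Fits of experiment 2 leave out the Dicer knock-out unless named. Alternatives included edgeR 4.0.16, DESeq2 1.42.0 and other scalings. Scripts were tested on simulated data. RNAfold 2.7.2 gave hairpin energies. None of 48 replicate pairs was identical. Same-numbered replicates deviated together in experiment 2 pulldown, in 36 of 36 pairs of groups (r 0.106 to 0.610), so the numbers pair samples there. Members and lists were chosen with earlier results of these data known; named entries are the members, the 2 pulldown controls, the entries overlapping other small RNAs and the 3 most alike. miR-766, miR-182-5p, miR-181a-5p, miR-92a-3p, miR-10a-5p and miR-10b-5p were named after their values were seen.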

Additional observations from a re-analysis of the deposited data

Results flagged for a closer look

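Within a line and fraction, 18 of the 85 sets of 6 libraries that could be examined (21.2%) had a member with 1 library far from the other 5 by Dixon's ratio at the 95% level. That level means 1 in 20 only for independent sets of normal values of 1 kind. These sets mix mock and dsRNA libraries on an unlogged scale, and members share libraries, so the share is not set against chance. Values are normalised counts. In parental pulldown of experiment 1, mock replicate 2 was high for miR-10395-3p (124, others 1.71 to 21.9), miR-10395-5p (34.3, others 0.735 to 12.1) and miR-1275 (32.9). In TRBP knock-out pulldown dsGFPc replicate 2 was high for miR-10395-3p (64.5) and miR-10395-5p (25.3), and dsGFPd replicate 2 for miR-3168 (62.4). In PACT knock-out pulldown dsGFPd replicate 2 was high for miR-10395-3p (41.1). In parental pulldown of experiment 2, mock replicate 2 was high for miR-10395-5p (9.16) and miR-3168 (15.6). All 9 of these values were in replicate 2.

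In Dicer knock-out total RNA, mock replicate 1 stood above the other 5 libraries for miR-10395-3p (96749), miR-10395-5p (176219), miR-7974 (58447), miR-1275 (29972) and miR-3168 (3254). It is the smallest of those libraries, at 39916 reads, and its 1 read is worth 32.5 normalised counts. In Dicer knock-out pulldown miR-7974 was read only in dsGFPc replicate 1 (121.5, from 25 reads), and miR-1275 was high in dsGFPc replicate 2 (1127, from 46 reads). In total RNA of experiment 1 miR-1275 was low in PACT knock-out mock replicate 1 (114, others 178 to 213) and miR-12136 was high in TRBP knock-out mock replicate 2 (160.1, others 98.8 to 119).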

How the results depend on the processing

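Of 523 counts of called members under other settings, 486 kept within 1.5 times the reported count. For PACT, TRBP knock-out against TRBP knock-out the 4 calls became 2 with no low-count filter and 2 with quantile normalization, and 2 to 4 without 1 library (2 without TRBP knock-out dsGFPc or dsGFPd replicate 2, or any replicate 1 of PACT, TRBP knock-out). For Ago2 knock-out in total RNA the 1 call became 0 with no low-count filter, quantile normalization, edgeR or the Dicer knock-out libraries kept, and 2 with columns scaled to the same sum or with the replicate block; without 1 library it was 0 to 2 (0 without parental dsGFPc or dsGFPd of either replicate, Ago2 knock-out mock or dsGFPd replicate 1 or dsGFPc replicate 2, or Ago1/2 knock-out dsGFPd replicate 2, and 2 without parental mock replicate 2). In its pulldown the 1 call became 0 with the same sum, edgeR or the Dicer knock-out libraries kept, and 2 with quantile normalization, where miR-1275 turned from −0.08 to 1.15 (adjusted p = 0.0442). For dsRNA in the Dicer knock-out, given as a description, the count of 2 became 6 with the same sum, 5 with quantile normalization, 4 with edgeR and 5 with DESeq2, and 1 to 5 without 1 library (5 without mock replicate 2, 1 without any other). For the response by line in experiment 2, keeping the Dicer knock-out libraries gave 2. The members were chosen for high values in those libraries, so nothing is read from this count. The cause was not tested. By correlations over all miRNAs the replicate numbers paired samples in experiment 2 pulldown alone. The replicate block gave 3 calls in place of 2 for dsRNA in experiment 1 total RNA and, apart from this and the Ago2 knock-out count above, changed no count of members. In experiment 1 pulldown, where most members were higher in replicate 2, it left each count at 0. The Dicer knock-out rests on 6 small libraries. Leaving out parental pulldown libraries was chosen after seeing the data, and its values stand beside the pulldown ratios.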

Other observations

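The members kept company with each other differently in the 2 experiments. Over the 18 total RNA libraries of experiment 2 with Dicer, Pearson's r between members other than miR-3168 was 0.41 to 0.86, the highest between miR-10395-3p and miR-7974. Over the 24 of experiment 1 miR-10395-3p and miR-7974 had r = 0.31, and miR-12136 and miR-1275 had 0.69, the value next to that of the miR-10395 arms (0.71). The libraries of an experiment share lines and scaling, and these are descriptions.

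In the Dicer knock-out with long dsRNA, the fit marked 2 of the 4 tested entries that overlap other small RNAs, in opposite directions, where 32.1% of the 193 miRNAs tested were called. The log2 difference from mock was 3.99 (SE 0.40) for miR-1246 and −4.13 (SE 0.53) for miR-1260b, with a list median of −0.64. Depth, scaling and transfection cannot be told apart in these libraries, so the values are a description.

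In Ago pulldown of experiment 1, replicate 2 had more miR-10395-3p than replicate 1 in 12 of 12 groups of line and transfection, more miR-10395-5p in 11 and more miR-1275 in 11.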
